A study of Homo sapiens with 24 samples.

Results

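The control pull-down at 72 h is the RNA that streptavidin beads retained from H2052 cells that had received a scrambled, non-targeting microRNA mimic. It was set here against the RNA-seq libraries of the same cells at the same time. The labels of time, mimic and assay pick out 6 of the 24 libraries of the series, 3 of the pull-down and 3 of RNA-seq. H2052 is an established human line grown from pleural mesothelioma, a cancer of the membrane around the lungs. The study set out to find the transcripts bound by miR-497-5p, with the scrambled mimic as its control. All cells received 20 nM of a mimic with biotin at its 3′ end, by lipid transfection with RNAiMAX, so the RNA-seq libraries used here also come from transfected cells. The pull-down was made from a cytoplasmic extract that was incubated with the beads. The labels call the RNA-seq libraries input and do not say whether that RNA came from whole cells or from the extract. Poly(A) RNA was used for both assays. Further groups are used only for comparison. These are the control mimic at 12 h and miR-497-5p at 72 h, each with 3 pull-down and 3 RNA-seq libraries.

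A microRNA is loaded into an Argonaute protein and pairs through its seed with sites in messenger RNAs, mostly in the 3′ UTR. A biotin tag on the microRNA lets beads retain the complex together with the paired transcript, while a scrambled mimic is meant to pair with no particular set. RNA classes differ in where they reside: messages encoded by mitochondrial DNA stay inside the organelle, long noncoding RNAs such as MALAT1 and messages with detained introns are kept in the nucleus, and ribosomal protein messages are abundant in the cytoplasm.

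The pull-down libraries held 23552252, 30650982 and 23862847 counts, and the RNA-seq libraries 26355536, 27595617 and 25535580. At this depth 18252 to 18701 genes had a count in a pull-down library, against 24747 to 24888 in an RNA-seq library. A further 129 genes, of which 44 were protein-coding, had 0 counts in all 3 pull-down libraries and 10 or more in each RNA-seq library, and 0 genes showed the opposite pattern. Libraries of the pull-down correlated with each other at 0.981 to 0.983 across genes (log2 CPM) and those of RNA-seq at 0.998, against 0.877 to 0.882 between the assays. Genes are not independent replicates, so these are descriptions. Whether the replicates came from separate cultures is not given, so p-values refer to the spread among these libraries alone, and that spread may be technical.

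The labelled cell line was checked against 18 mesothelial and mesothelioma markers, whose summed level was 5452 to 5499 CPM of total counts in the pull-down and 4428 to 4482 CPM in RNA-seq. KRT18, KRT8, KRT19 and VIM were its strongly counted members. Mesothelin (MSLN) was present at 167 to 176 CPM in the pull-down and 49.4 to 54.6 CPM in RNA-seq, whereas CALB2, UPK3B and ITLN1 stayed under 2 CPM in all 6 libraries. The sum of 34 squamous epithelium markers was 102 to 113 CPM in the pull-down and 265 to 278 CPM in RNA-seq, most of it KRT10 and PERP. Of these markers 12 were at 0 in all 6 libraries, among them SPRR1A, SPRR3, KRT1 and KRT14. Blood and lymphoid markers summed to 9.2 to 9.77 CPM in the pull-down and 2.57 to 3.37 CPM in RNA-seq, with 3 of 11 at 0. Fibroblast and endothelial markers summed to 756 to 810 CPM in the pull-down and 389 to 396 CPM in RNA-seq, nearly all of it THY1. In bulk libraries fewer cells of a type and less RNA per cell cannot be told apart, and the part of these lists in the results was not tested.

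The pull-down and the RNA-seq of control cells differed over most of the transcriptome. Of 15911 genes tested with edgeR's quasi-likelihood test, 5165 (32.5%) were higher and 5463 (34.3%) lower in the pull-down at an adjusted p under 0.05. With a difference of at least 2-fold in addition, 3344 (21%) were higher and 3776 (23.7%) lower. The 3 libraries of each assay did not overlap for 11992 genes (75.4%). Fold changes are given as log2 of pull-down over RNA-seq ± the standard error, with 3 libraries per assay, and levels as CPM, a library's counts as parts of its TMM-scaled total. Both are relative to the other transcripts of a library, because the amount of RNA on the beads was not measured. The median of all genes was -0.14 and became -0.56 when libraries were scaled by their totals, a shift of -0.42. With that scaling 34.8% of the calls were higher, against 48.6% with TMM.

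Genes were ranked by size if they passed the test without overlap and averaged 10 CPM or more. Among these the largest differences reached 39.6-fold higher and 35.1-fold lower in the pull-down. Over all genes tested, log2 fold changes ran from -9.93 to 7.32. MRPL23 (ENSG00000214026, chromosome 11, 1947278 to 1984522 in GRCh38), a protein of the large mitochondrial ribosomal subunit, had 1508, 1586 and 1494 CPM in the pull-down, against 70.4, 70.5 and 67 CPM in RNA-seq. Its log2 fold change was 4.46 ± 0.04 (adjusted p 7.99e-12). NUCKS1 (ENSG00000069275, chromosome 1, 205712819 to 205750276), a nuclear DNA-binding phosphoprotein, had 3211, 3053 and 2972 CPM in the pull-down, against 159, 165 and 158 CPM in RNA-seq. The assays stood far apart for both genes, while libraries within an assay stayed close. EIF3J (ENSG00000104131, chromosome 15, 44537057 to 44563029), a translation initiation factor, had 2043, 1502 and 1368 CPM in the pull-down, against 95.9, 97.2 and 99.7 CPM in RNA-seq (4.07 ± 0.14, adjusted p 1.45e-08). PET100, an assembly factor of cytochrome c oxidase, followed at 4.36 ± 0.04. The protein-coding genes PBDC1 (4.25), NBPF26 (4.11) and HAUS7 (4.06) stood with it, HAUS7 being a subunit of the augmin complex of the spindle. The other 5 genes of the 12 highest were the pseudogene TMSB4XP4 (4.34) and 4 loci without a symbol, ENSG00000280550 (5.31 ± 0.15), ENSG00000267105 (4.77 ± 0.22), ENSG00000215447 (4.48 ± 0.12) and ENSG00000276345 (4.32 ± 0.05). TMSB4XP4 and NBPF26 have near-identical copies, so the split of their uniquely placed reads is uncertain.

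PCBP1 (ENSG00000169564, chromosome 2, 70087454 to 70089203), a single-exon gene for a poly(C)-binding protein, lay at the opposite end. It had 5.09, 3.24 and 8.51 CPM in the pull-down, against 195, 184 and 197 CPM in RNA-seq (-5.13 ± 0.22, adjusted p 6.22e-08). FTH1 (ENSG00000167996, chromosome 11, 61959718 to 61967660), the ferritin heavy chain that stores iron, had 197, 176 and 179 CPM in the pull-down, against 3443, 3431 and 3413 CPM in RNA-seq (-4.22 ± 0.04, adjusted p 1.2e-11). YBX1 (ENSG00000065978, chromosome 1, 42682427 to 42702349), an mRNA-packaging protein with a cold shock domain, had 190, 194 and 195 CPM in the pull-down, against 3071, 2994 and 3125 CPM in RNA-seq (-3.99 ± 0.03, adjusted p 3.12e-12). The pull-down thus lacked most of the signal of some of the strongly counted messages of these cells, without an overlap between the assays. TUBA1B, an alpha-tubulin, had 12.5, 11.8 and 9.47 CPM in the pull-down, against 205, 209 and 208 CPM in RNA-seq. PDIA6 (-4.18), a disulfide isomerase of the endoplasmic reticulum, NTAN1 (-3.96), an amidase of the N-degron pathway, PPIL1 (-3.95 ± 0.49), a cyclophilin of the spliceosome, and CITED2 (-3.77), a transcriptional coregulator, were also among the 12 lowest. The remainder were MT-ND4L, C8orf88 and the pseudogenes RPS2P5 and SBDSP1, and these pseudogenes share reads with RPS2 and SBDS.

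**Figure D1:**
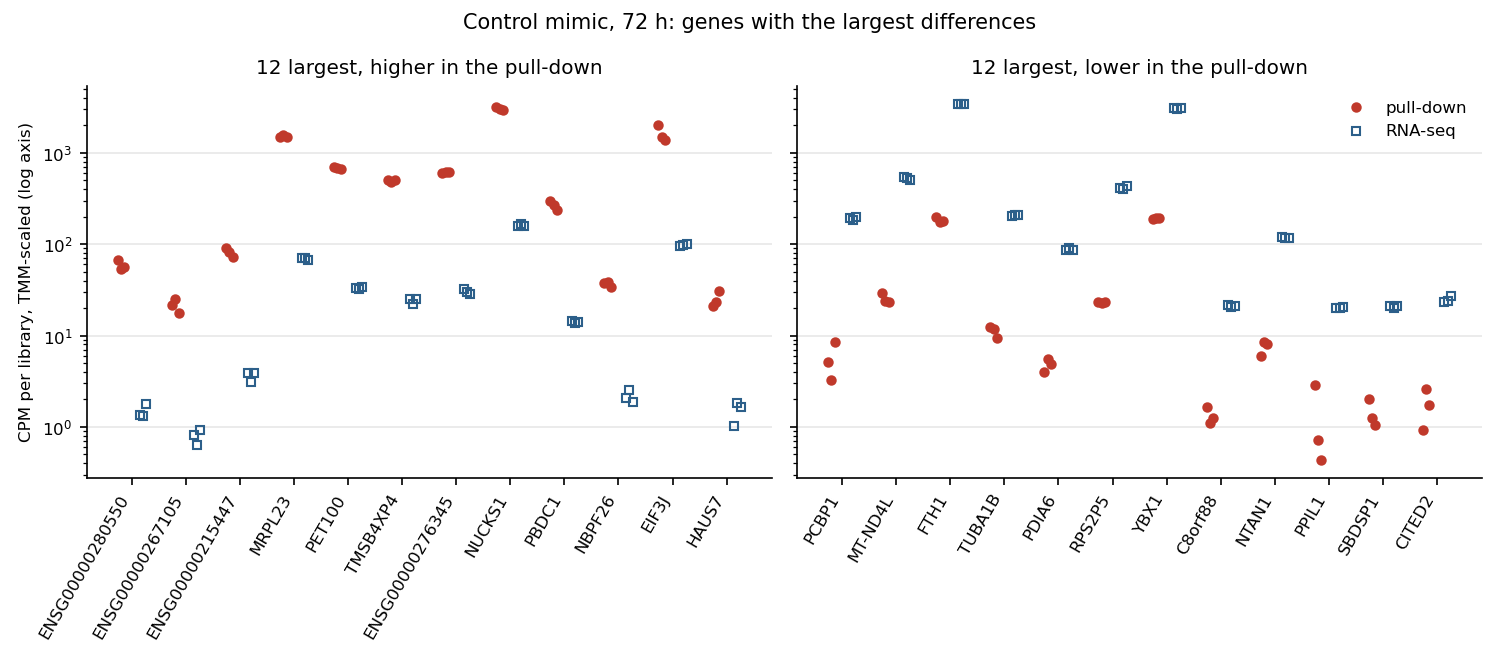
CPM in each library (log axis) of the 12 genes with the largest log2 fold change in each direction that passed the test, had no overlap and averaged 10 CPM or more, control mimic, 72 h. Each point is 1 library, and the assays do not overlap for any of these genes, which the choice of genes required. MRPL23 stands at 1494 to 1586 CPM in the pull-down and at 67 to 70.5 CPM in RNA-seq, and PCBP1 at 3.24 to 8.51 CPM in the pull-down and at 184 to 197 CPM in RNA-seq.

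By counts not divided by length, the genes with the highest mean CPM in the pull-down were TMSB10, GNAS, TMSB4X, PABPC1, RPL8 and RPL13. TMSB10, a thymosin that binds actin monomers, had 19321, 19785 and 19454 CPM in the pull-down, against 6909, 6978 and 7033 CPM in RNA-seq (1.49 ± 0.01, adjusted p 8.12e-12). GNAS, the stimulatory G protein alpha subunit, had 18291, 19464 and 19248 CPM in the pull-down, against 5435, 5372 and 5507 CPM in RNA-seq (1.80 ± 0.02, adjusted p 3.99e-11). Both were apart in every library. PABPC1, the cytoplasmic poly(A)-binding protein, was higher in the pull-down by 0.78 ± 0.03 (adjusted p 4.58e-08). RPL8 was higher by 0.27 ± 0.02 with TMM and stood at -0.15 when scaled by library totals.

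Messages encoded in the mitochondrial genome were the class that the pull-down lacked most. All 13 were tested and all 13 were lower in the pull-down, with a median of -2.72 and a range of -4.36 to -0.74, against a median of -0.14 over all genes. MT-ND4 (chromosome MT, 10760 to 12137), a subunit of respiratory complex I, had 1110, 1124 and 1138 CPM in the pull-down, against 11331, 10896 and 10875 CPM in RNA-seq (-3.30 ± 0.02, adjusted p 3.12e-12). MT-CO2 (chromosome MT, 7586 to 8269), a catalytic subunit of complex IV, had 513, 526 and 525 CPM in the pull-down, against 4071, 3888 and 3917 CPM in RNA-seq (-2.92 ± 0.02). No library of the pull-down reached an RNA-seq library for either gene. MT-ND1 was lower by less (-1.98 ± 0.03), and so was MT-CYB of complex III (-1.97 ± 0.05). The least difference belonged to MT-ND6 (-0.74 ± 0.04, adjusted p 4.52e-07), the message read from the light strand, with 769, 827 and 748 CPM in the pull-down and 1368, 1269 and 1282 CPM in RNA-seq. The largest belonged to MT-ND4L (-4.36 ± 0.07), whose coding sequence overlaps that of MT-ND4, so reads in the overlap are uncertain. Of the 22 mitochondrial tRNA genes, 10 were lower and 2 higher.

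Taken as shares, mitochondrially encoded genes held 0.826%, 0.878% and 0.889% of all counts in the pull-down libraries, against 6.01%, 5.77% and 5.75% in the RNA-seq libraries. The mean was 0.864% ± 0.0337 in the pull-down and 5.84% ± 0.143 in RNA-seq (SD, n = 3 each), which is 6.76-fold lower (exact permutation test, two-sided, p 0.1). With 3 libraries against 3 this p is the smallest possible. Cytosolic ribosomal protein genes held 15.2% ± 0.0256 of counts in the pull-down and 19% ± 0.0549 in RNA-seq. Long noncoding RNA genes held 1.56%, 1.51% and 1.5% in the pull-down libraries, against 1.34%, 1.35% and 1.34% in the RNA-seq libraries. MALAT1 alone held 0.546% ± 0.0392 in the pull-down and 0.12% ± 0.00165 in RNA-seq. Without MALAT1, a choice made after its level was seen, the class held 0.978% ± 0.00595 in the pull-down and 1.22% ± 0.00302 in RNA-seq, a difference in the opposite direction. Pseudogenes held 0.408% ± 0.00938 in the pull-down and 0.447% ± 0.00286 in RNA-seq. All 4 classes were without overlap between the assays, each with the same exact p of 0.1.

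**Figure D2:**
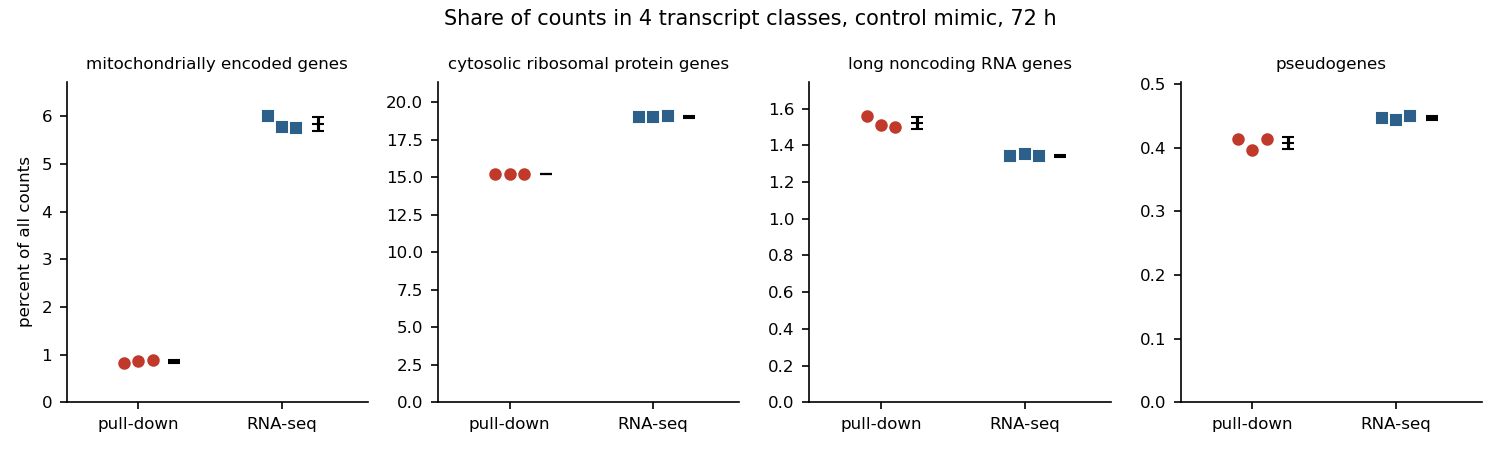
Percent of all counts in 4 transcript classes, by library, control mimic, 72 h. Each point is 1 library, and the bar beside each group is the mean with the SD of 3 libraries. Mitochondrially encoded genes hold 0.826 to 0.889% in the pull-down and 5.75 to 6.01% in RNA-seq, the widest gap of the 4.

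The translation machinery split between its members. Among 79 cytosolic ribosomal protein genes tested, of 80 listed, 34 were higher and 40 lower in the pull-down, with a median of -0.09. RPL7, of the large subunit, had 191, 200 and 208 CPM in the pull-down, against 2154, 2163 and 2174 CPM in RNA-seq (-3.44 ± 0.03, adjusted p 9.13e-12). RPS26, of the small subunit, had 1315, 1336 and 1343 CPM in the pull-down, against 255, 261 and 259 CPM in RNA-seq (2.37 ± 0.02, adjusted p 8.12e-12). Members of the same particle thus lay apart by over 5 log2 units, and the libraries of neither gene overlapped between the assays. FAU (2.33), RPL35 (2.01) and RPL18 (1.99) stood on the higher side, and RPS3A (-3.07), RPL41 (-2.58) and RPL10A (-2.55) on the lower. These 6 were picked after their values were seen. Most ribosomal protein genes have processed pseudogenes, and with uniquely placed reads alone the loss to those copies is uncertain. Translation factors whose messages start with a terminal oligopyrimidine (TOP) tract were mostly lower, 15 of 19, with 3 higher and a median of -0.84. EEF1A1, the elongation factor that brings tRNA to the ribosome, had 3135, 3238 and 3107 CPM in the pull-down, against 10071, 10159 and 9952 CPM in RNA-seq (-1.67 ± 0.02, adjusted p 1.93e-11). TPT1 (-1.80 ± 0.02), which encodes a tumour protein under translational control, and NPM1 (-1.39 ± 0.02), the nucleolar chaperone nucleophosmin, were lower as well.

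Nuclear genes whose products work in mitochondria did not share the loss of the mitochondrially encoded messages. Of 77 nuclear genes of the respiratory chain, 39 were higher and 29 lower, with a median of 0.27. NDUFA3, of complex I, had 891, 862 and 902 CPM in the pull-down, against 79.5, 78.2 and 83.6 CPM in RNA-seq (3.46 ± 0.04, adjusted p 1.41e-11). ATP5F1D (3.04 ± 0.03) and ATP5ME (2.90 ± 0.03), both of ATP synthase, were higher too. Mitochondrial ribosomal proteins were split, with 29 of 77 higher, 35 lower and a median of -0.15. MRPL41 (3.02 ± 0.03) and MRPL12 (2.29 ± 0.03) stood with MRPL23 on the higher side. Of 32 proteasome subunits 19 were higher and 12 lower, with a median of 0.42. PSMD1, of the regulatory particle, had 240, 228 and 252 CPM in the pull-down, against 38, 37.7 and 37.2 CPM in RNA-seq (2.67 ± 0.05, adjusted p 2.17e-10).

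RNAs of the nucleus were present in the pull-down, although the labels name a cytoplasmic extract. MALAT1 (ENSG00000251562, chromosome 11, 65497762 to 65506516), the nuclear-speckle noncoding RNA, had 6812, 6225 and 5944 CPM in the pull-down, against 1055, 1034 and 1028 CPM in RNA-seq (2.61 ± 0.05, adjusted p 1.86e-10). NEAT1 (ENSG00000245532, chromosome 11, 65422774 to 65445540), the scaffold of paraspeckles and its neighbour on the chromosome, had 104, 97.3 and 101 CPM in the pull-down, against 281, 278 and 276 CPM in RNA-seq (-1.47 ± 0.04, adjusted p 1.32e-09). The pair therefore went in opposite directions, each without overlap between the assays. Of 20 nuclear-retained noncoding RNAs 17 were tested, and 5 were higher and 7 lower, with a median of -0.42. MEG3, an imprinted noncoding RNA, was among the higher (1.51 ± 0.07, adjusted p 6.35e-08). Of 15 cytoplasmic noncoding RNAs 12 were tested, with 4 higher and 8 lower and a median of -0.79. NORAD, which binds PUMILIO proteins, was lower by 1.35 on the log2 scale (adjusted p 8.56e-10). SNHG29, a snoRNA host gene, had 69.7, 80.4 and 76.1 CPM in the pull-down, against 845, 853 and 851 CPM in RNA-seq (-3.49 ± 0.05). Over all 1845 long noncoding RNA genes tested, 443 (24.0%) were higher, 302 (16.4%) lower and 1100 not called. Both called shares were below those of all genes, 32.5% higher and 34.3% lower. The median of the noncoding genes was 0.03. Relative to all genes the median was 0.17, and it was -1.32 with no filter on low counts, so its direction depends on the filter.

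Messages with detained introns or nuclear retention were lower in 16 of 25 tested and higher in 7, with a median of -1.01. The members with the smallest adjusted p were on the higher side. SRSF11, a splicing factor of the SR family, had 690, 663 and 619 CPM in the pull-down, against 48.2, 49.4 and 51 CPM in RNA-seq (3.73 ± 0.05, adjusted p 3.96e-11). LUC7L3 (3.28 ± 0.05), a U1-associated splicing factor, and SON (2.34 ± 0.05), a core protein of nuclear speckles, were higher as well. Of 47 replication-dependent histone genes, whose messages mostly lack a poly(A) tail, 18 passed the filter on low counts, with 5 higher and 2 lower. H2AC20 was highest of those named, with 6.27, 7.12 and 6.57 CPM in the pull-down, against 0.69, 0.438 and 0.577 CPM in RNA-seq (3.54 ± 0.29, adjusted p 4.92e-06). Histone genes are near-identical copies, so these reads are uncertain.

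Genes of G2 and mitosis were lower in 24 of 40 and higher in 11, with a median of -0.98. FOXM1, the transcription factor of the G2/M programme, had 14.5, 14.4 and 17.6 CPM in the pull-down, against 177, 181 and 173 CPM in RNA-seq (-3.52 ± 0.08, adjusted p 7.48e-10). TOP2A, the topoisomerase that untangles sister chromatids, had 1658, 1546 and 1477 CPM in the pull-down, against 169, 175 and 162 CPM in RNA-seq (3.21 ± 0.05, adjusted p 8.71e-11). Both were apart between the assays, on opposite sides. CDC20, the activator of the anaphase-promoting complex, was higher (1.87 ± 0.04). Cytosolic chaperones had a similar split, with 14 of 23 lower, 8 higher and a median of -0.93. HSP90AA1, the inducible HSP90, had 2880, 2825 and 2684 CPM in the pull-down, against 384, 381 and 371 CPM in RNA-seq (2.88 ± 0.03, adjusted p 1.48e-11). HSPA8, the constitutive HSP70, had 36.6, 28.7 and 39.2 CPM in the pull-down, against 291, 293 and 287 CPM in RNA-seq (-3.07 ± 0.10, adjusted p 7.22e-09).

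Inflammatory cytokines and chemokines were lower in 12 of 17 tested, of 21 listed, with 2 higher and a median of -1.59. IL1B, the fever cytokine interleukin-1 beta, had 16.7, 12.8 and 14.1 CPM in the pull-down, against 74.7, 74.8 and 76.2 CPM in RNA-seq (-2.38 ± 0.10, adjusted p 4.23e-08). CXCL8, the neutrophil chemokine interleukin-8, was lower by 2.58 on the log2 scale. The inhibitor of NF-kappa-B NFKBIA was higher (1.40 ± 0.08, adjusted p 3.14e-07). Interferon response genes did not lean the same way, with 7 of 22 tested higher and 5 lower, and ISG15 (3.28 ± 0.05) and USP18 (3.03 ± 0.08) among the higher. Collagens and secreted matrix proteins were lower in 20 of 38 and higher in 9 (median -0.44), with SPARC lower (-1.87 ± 0.05) and COL6A2 higher (2.01 ± 0.04). Integrins and surface receptors were lower in 21 of 39 and higher in 12 (median -0.36), with ITGB1, the common beta subunit, at -2.86 ± 0.08 and PLXNA1, a semaphorin receptor, at 2.19 ± 0.05.

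Components of the microRNA pathway were 5 higher and 5 lower of 17, with a median of 0.00. TNRC6A, a GW182 scaffold of the silencing complex, had 156, 145 and 147 CPM in the pull-down, against 38.1, 36.5 and 35.3 CPM in RNA-seq (2.03 ± 0.05, adjusted p 1.78e-09). PRKRA, a partner of Dicer, stood at -2.61 ± 0.17. Messages of the 6 genes for biotin-dependent enzymes and the ligase that loads biotin onto them were 1 higher and 3 lower. Of the other lists, aminoacyl-tRNA synthetases (8 higher and 7 lower of 20), lysosomal genes (15 and 14 of 34), selenoproteins (8 and 5 of 15), cholesterol synthesis (10 and 11 of 24), polyadenylated histone variants (5 and 4 of 12) and glycolytic enzymes (7 and 9 of 17) were spread over both sides. Immediate early genes (9 higher and 16 lower of 31), snoRNA hosts (5 and 11 of 17), endoplasmic reticulum chaperones (9 and 18 of 29), actin and tubulin genes (9 and 16 of 29), giant mRNAs (11 and 22 of 45) and KRAB zinc finger genes (22 and 39 of 123) had more members on the lower side. These lists get no test of their own, and their counts stand against 32.5% higher and 34.3% lower over all genes. Of the KRAB genes 17.9% were higher and 31.7% lower, and 62 of 123 were not called. Their share on the lower side was thus no larger than that of all genes.

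**Figure D3:**
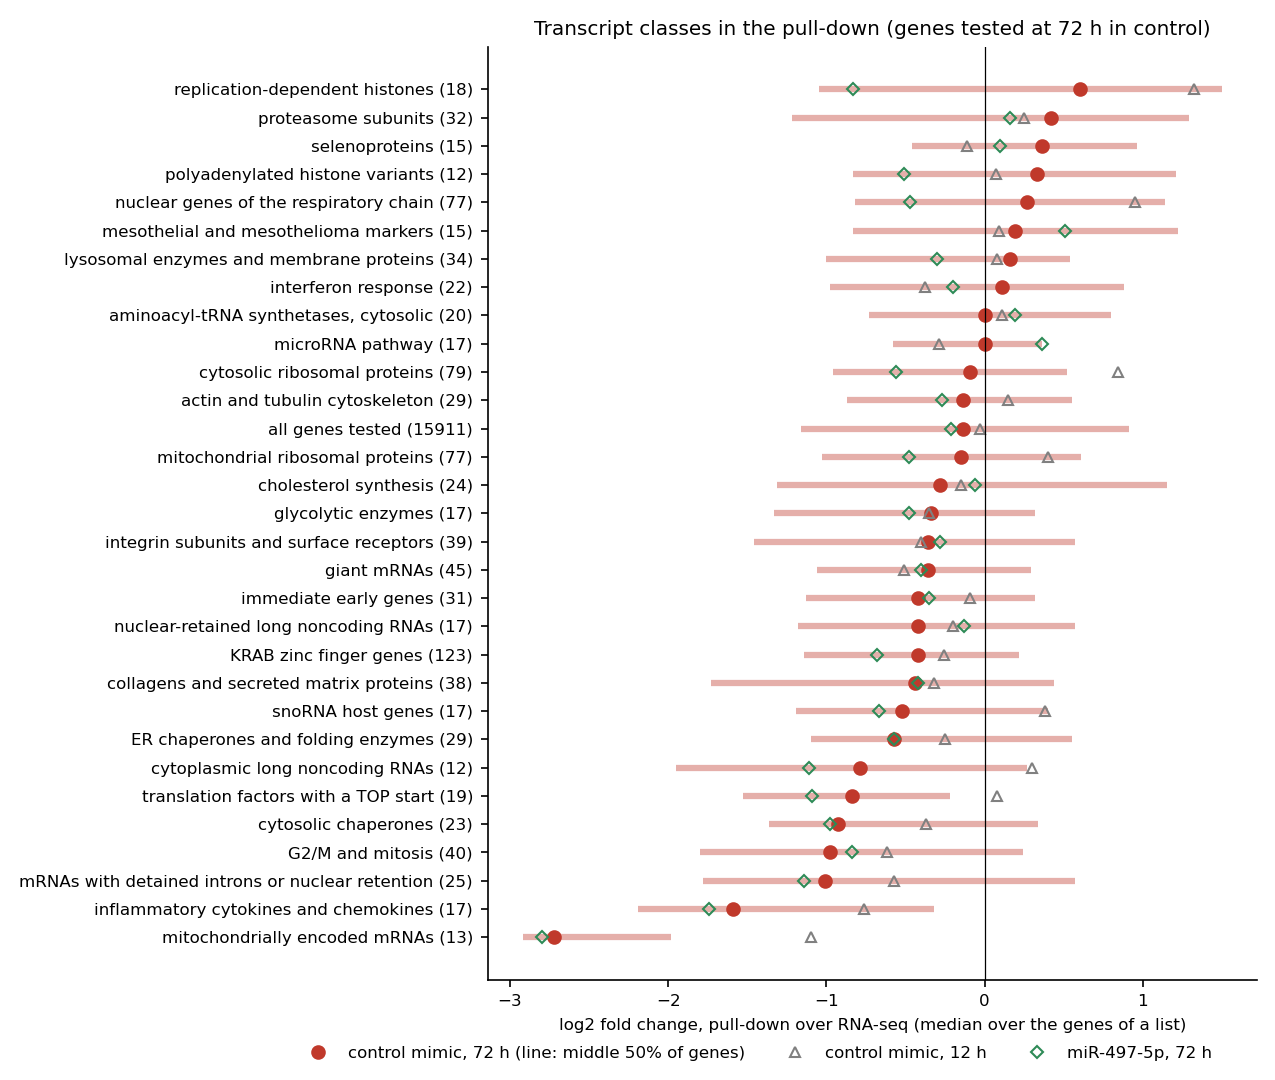
Median log2 fold change, pull-down over RNA-seq, of the genes tested in each list (number tested in brackets) for control at 72 h (filled circles, with a line over the middle 50% of the genes), control at 12 h (triangles) and miR-497-5p at 72 h (diamonds). Mitochondrially encoded mRNAs lie farthest to the left at 72 h, with a median of -2.72 in control and -2.80 with miR-497-5p, against -1.10 at 12 h in control.

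The series names 6 genes, and the control pull-down did not treat them alike. CDK4 (chromosome 12, 57747727 to 57756013), the G1 kinase, had 9.7, 6.78 and 9.14 CPM in the pull-down, against 88.6, 93.6 and 88.9 CPM in RNA-seq (-3.41 ± 0.12, adjusted p 1.47e-08). WEE1 (chromosome 11, 9573681 to 9593457), the kinase that holds CDK1 inactive, had 3.62, 3.92 and 5.7 CPM in the pull-down, against 15.3, 14.8 and 15.4 CPM in RNA-seq (-1.78 ± 0.19, adjusted p 3.8e-05). CCND1 (chromosome 11, 69641087 to 69654474), cyclin D1, had 544, 548 and 561 CPM in the pull-down, against 353, 349 and 350 CPM in RNA-seq (0.65 ± 0.03, adjusted p 2.7e-08). CDK4 and WEE1 were thus low and CCND1 high in the pull-down without miR-497-5p, with no overlap between the assays. GAPDH, the housekeeping enzyme, was lower by 0.34 ± 0.03 on the log2 scale (adjusted p 7.95e-06). VEGFA, a growth factor of blood vessels, had -0.01 ± 0.14 (adjusted p 0.964) and -0.43 (adjusted p 0.0243) when scaled by library totals. PKMYT1, a kinase of the WEE1 family, had 0.37 ± 0.21 (adjusted p 0.147) and 0.53 (adjusted p 0.0198) without pull-down replicate 3, which held its lowest level.

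What the transcripts on each side share was described over 13004 protein-coding genes of the nuclear genome, from the canonical transcript of GENCODE 44. These features were chosen after the values were seen, and they get no test. GC content went with the fold change more closely than the other features examined (Spearman's rho 0.507 across genes, which are not independent replicates). Genes were ranked by GC content and divided into 10 equal groups. In the lowest group, 30.7 to 38.4%, 12.1% of genes were higher and 66.5% lower in the pull-down, with a median of -1.30. In the highest, 62.3 to 76.0%, 74.0% were higher and 7.23% lower, with a median of 1.25. The median climbed through every group in between. Length of the transcript (rho -0.0679) and number of exons (-0.00291) carried almost none of it. Density of ATTTA, the core of AU-rich elements that mark unstable messages, in the 3′ UTR went the other way (rho -0.359 over 12561 genes), and it is itself tied to low GC content (rho -0.596). Ranked by ATTTA density into 10 groups, the densest had a median of -1.05, and of -0.35 after the median of genes of like GC content was taken off.

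**Figure D4:**
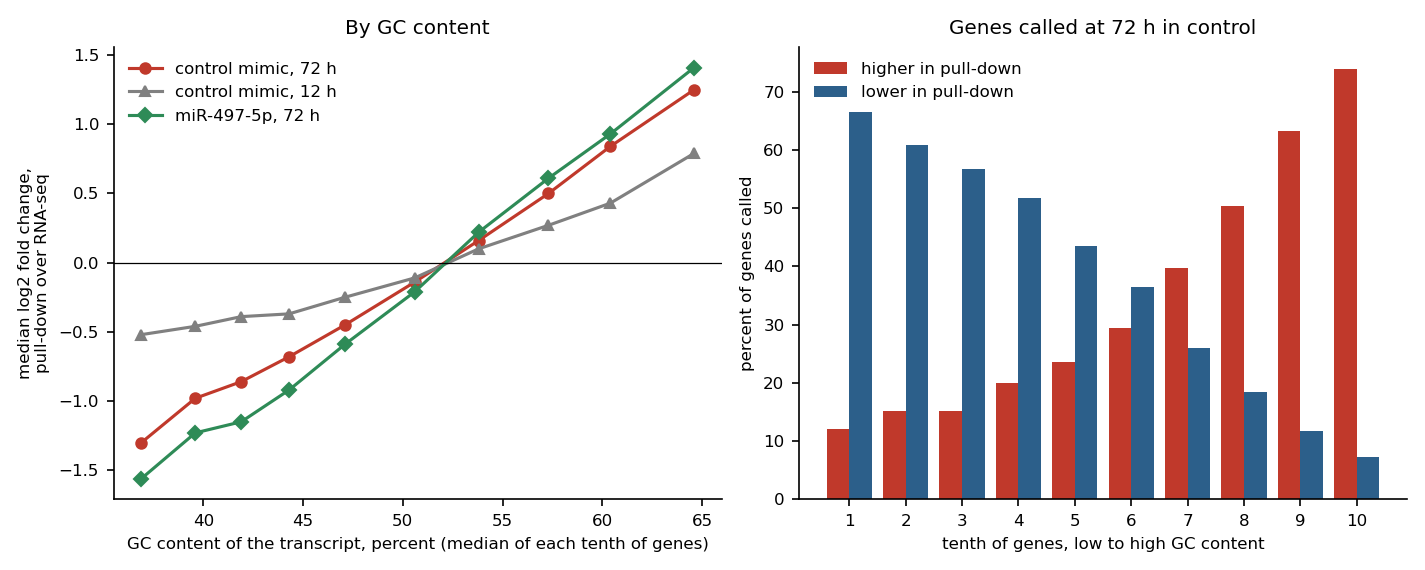
Left, median log2 fold change, pull-down over RNA-seq, in 10 equal groups of protein-coding genes by GC content of the transcript, for control at 72 h, control at 12 h and miR-497-5p at 72 h. Right, percent of genes called higher or lower in the pull-down in each group at 72 h in control. The median in control at 72 h climbs through all groups, with -1.30 in the lowest and 1.25 in the highest.

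Taking off the median of genes of like GC content moved most classes. The median of mitochondrially encoded mRNAs was -1.87 on this scale, against -2.58 relative to all genes, and that of inflammatory genes -1.30, against -1.44. Matrix genes stood at -0.86, farther down than the -0.30 by which their plain median lay below that of all genes. KRAB zinc finger genes, which are rich in A and T, had a median of 0.33 on this scale, against -0.28 relative to all genes. The median of messages with detained introns became -0.29 and that of endoplasmic reticulum chaperones -0.05.

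A second feature of the transcripts that the pull-down held was an unbroken run of purines, that is of A and G only. Runs were measured with the last 50 bases of each transcript left off. Among 670 genes with a run of 30 bases or more, 60.4% were higher and 15.4% lower in the pull-down, with a median of 0.80. Among 5643 genes whose longest run was under 15 bases, 32.9% were higher and 40.2% lower, with a median of -0.24. Runs of pyrimidines of 30 bases or more showed no such lean, with 32.1% of 704 genes higher, 36.5% lower and a median of -0.14. Within the coding sequence alone, 265 genes with a purine run of at least 30 bases had a median of 1.26, with 68.3% higher and 13.2% lower. Purine runs in the 3′ UTR of that length (351 genes) had a median of 0.72, and those in the 5′ UTR (64 genes) one of 0.13.

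Purine runs and GC content were not the same feature. With the genes divided into 3 equal groups by GC content, in the lowest group 541 genes with a purine run of 25 bases or more had a median of 0.26, against -1.15 in 3794 genes without. In the middle group the medians were 0.68 with a run and -0.38 without, and in the highest group 1.17 with a run and 0.78 without. Of the 50 protein-coding genes highest in the pull-down 34 (68.0%) held a purine run of 25 bases or more, against 10.8% of all. Of the 200 highest 87 (43.5%) did. Of the 50 lowest, 1 (2.0%) did, and of the 200 lowest 3 (1.5%). Runs of A alone of 15 bases or more, nearly all in 3′ UTRs, had a plain median of 0.43 in 1224 genes. That was close to the 0.46 of 4434 genes whose longest A run was 2 to 5 bases. After the median of genes of like GC content was taken off, the medians were 0.93 with the long run and -0.06 with the short. The 1489 genes with a T run of 15 bases or more had a plain median of -0.37. A long run does not mark every gene on the higher side. The longest purine run was 12 bases in MRPL23, 11 in PET100, 17 in EIF3J and 15 in HAUS7. In NUCKS1, PBDC1 and NBPF26 it was 47, 25 and 42 bases.

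**Figure D5:**
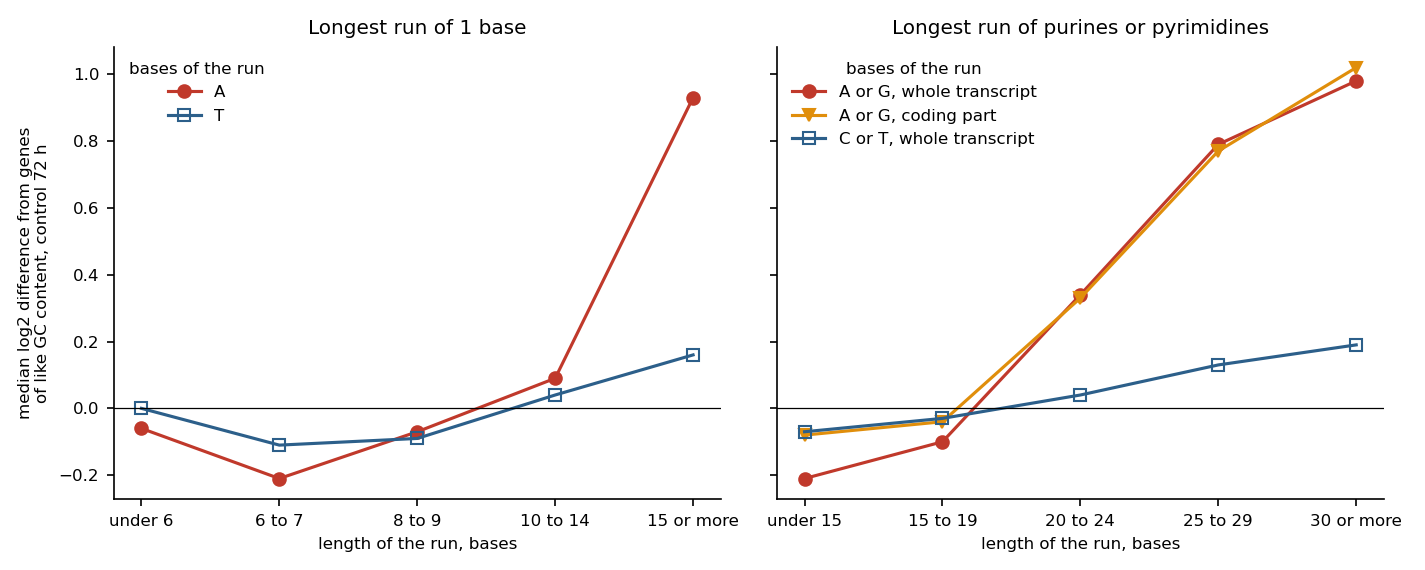
Median log2 fold change, pull-down over RNA-seq, after the median of genes of like GC content was taken off, by length in bases of the longest run in the transcript, control mimic, 72 h. With 30 bases or more, purine runs stand at 0.98 and pyrimidine runs at 0.19; with 15 bases or more, runs of A stand at 0.93 and runs of T at 0.16.

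The sequences below show what such a coding run looks like in genes from the higher end of the comparison, which were chosen for holding one. Each is 30 bases of the longest coding purine run, read 5′ to 3′ on the strand of the gene from the GENCODE 44 transcript (GRCh38), with the purine run in capitals.
NBPF26, chr1:120832921-120832950, plus strand: AAAGAAGGAAAGAAGAAGGGGAAGAAAAGA
AP3D1, chr19:2115318-2115347, minus strand: AAGAGGAGGAAAAAGAGGAAGGAGAAGGAG
KAT6B, chr10:75028875-75028904, plus strand: GAGGAAGAGGAAGAGGAGGAGGAGGAGGAA
METAP2, chr12:95483244-95483273, plus strand: GGAAAGAAGAAGAAAAAGAAGAAGAAGAAG
UPF3B, chrX:119841224-119841253, minus strand: GAGAGAAGAAAAGAGAGAAGAAAGGAGGAG

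All 5 windows lie within an exon and hold purines only, which in frame encode lysine, arginine, glutamate or glycine. The runs themselves were 42 bases long in NBPF26, 38 in AP3D1 and UPF3B, 80 in KAT6B and 36 in METAP2. AP3D1, a subunit of the AP-3 adaptor of vesicle traffic, had 1849, 1724 and 1564 CPM in the pull-down, against 125, 127 and 127 CPM in RNA-seq (3.76 ± 0.06, adjusted p 1.03e-10). METAP2, which removes the first methionine of proteins, had 1427, 1342 and 1346 CPM in the pull-down, against 106, 111 and 109 CPM in RNA-seq (3.66 ± 0.04, adjusted p 9.16e-12). KAT6B, a histone acetyltransferase, had 136, 137 and 125 CPM in the pull-down, against 10.3, 10.7 and 10.4 CPM in RNA-seq. None of these overlapped between the assays. UPF3B (3.51), of nonsense-mediated decay, was of the same order.

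Words of 10 bases were then ranked by the GC-adjusted fold change of the transcripts that hold them, over 5707 words that occur in at least 300 of the 13004 transcripts. Of the 50 highest words 6 had only A and G, against 6.64% of all words. The highest was AGACTCCGTC, in 309 transcripts (2.38%), with a GC-adjusted median of 0.81. Its reverse complement GACGGAGTCT, also in 309 transcripts, had 0.34. GGCGGATCAC, in 360 transcripts (2.77%), had 0.77, and its reverse complement GTGATCCGCC, in 376 (2.89%), had 0.21. As background, these words are part of the consensus of Alu elements, a primate repeat. Transcripts with any of the 8 highest words other than those of A and G numbered 1075, and their plain median was 0.21, against -0.20 in the 11929 without. The words were picked for high values in these same data, so a higher median in the transcripts that hold them follows from the choice. Of the 879 transcripts that held only the reverse complements, the median was -0.42. Because words of a repeat occur together and many such transcripts also hold a long A run, the counts overlap: 504 of the 1075 had an A run of 15 bases or more, with a GC-adjusted median of 1.08, against 0.22 in the 571 without. Purine runs of 25 bases or more in the 811 transcripts with neither these words nor a long A run had a plain median of 0.63, against -0.29 in 10398 transcripts with none of these.

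The same comparison in control cells at 12 h shares no library with that at 72 h. Over 14811 genes tested at both times, fold changes correlated across genes at 0.611 (Pearson) and 0.648 (Spearman). Of 7066 genes called at both times, 88.4% had the same sign. At 12 h 4248 of 15875 genes (26.8%) were higher and 4525 (28.5%) lower in the pull-down, 55.3% in either direction, and 10.6% were at least 2-fold higher and 8.64% at least 2-fold lower. The difference between the times was tested in a model of all 12 control libraries, where 3368 of 17545 genes (19.2%) had a higher and 4384 (25%) a lower fold change at 72 h. The lowered genes included 12 of the 13 mitochondrially encoded mRNAs and 0 of them were raised. Their median was -2.72 at 72 h and -1.10 at 12 h. Ribosomal protein genes went with them, 67 of 79 lowered and 6 raised, with a median of -0.09 at 72 h and 0.84 at 12 h. TOP translation factors (14 lowered and 2 raised of 19), mitochondrial ribosomal proteins (45 and 9 of 77), nuclear respiratory chain genes (45 and 17 of 77) and snoRNA hosts (11 and 1 of 17) leaned likewise. Giant mRNAs leaned the opposite way, 20 of 45 raised and 10 lowered. Coding purine runs of 30 bases or more had a median of 1.26 at 72 h and of 0.14 at 12 h, and the correlation with transcript length was -0.0679 at 72 h and -0.329 at 12 h. Of 34 squamous epithelium genes 33 were measured well enough to enter the 12 h comparison, against 8 at 72 h. At 12 h 5 were lower and 0 higher in the pull-down. In the test between times 4 of 33 had a higher and 4 a lower fold change at 72 h, with a median difference of 0.81. The part of these genes in the difference of other genes between the times was not tested.

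Among single called genes averaging 10 CPM or more, PCBP1 had the largest fall. In the model of 12 control libraries it had 5.72, 3.63 and 9.48 CPM in the pull-down at 72 h, against 222, 209 and 223 CPM in RNA-seq, and 136, 131 and 126 CPM in the pull-down at 12 h, against 255, 263 and 261 CPM in RNA-seq. The difference of the log2 fold changes was -4.16 ± 0.24 (edgeR's quasi-likelihood test, adjusted p 2.19e-09). SRSF9, a splicing factor of the SR family, had 34.6, 30.7 and 27.9 CPM in the pull-down at 72 h, against 403, 394 and 408 CPM in RNA-seq, and 311, 293 and 353 CPM in the pull-down at 12 h, against 293, 274 and 281 CPM in RNA-seq (-3.87 ± 0.11, adjusted p 2.8e-12). Libraries of the pull-down at 72 h lay far below those at 12 h for both genes. In RNA-seq SRSF9 was higher at 72 h than at 12 h, and PCBP1 lower, without overlap. PSMC3IP (-4.08), a recombination cofactor, DBNDD2 (-3.93) and the pseudogene SBDSP1 (-3.78) completed the 5 lowest. The 5 highest were NBPF8 (4.86 ± 0.33), SRXN1 (3.95 ± 0.27), which reduces oxidised peroxiredoxins, the pseudogene LRRC37A16P (3.93 ± 0.22), NBPF15 (3.86 ± 0.17) and NBPF26 (3.59 ± 0.21). SRXN1 differed in both assays, with 30.9 to 44.7 CPM in the pull-down at 72 h and 7.32 to 11.7 CPM at 12 h. In RNA-seq SRXN1 had 6.5 to 9.03 CPM at 72 h and 25.2 to 31.2 CPM at 12 h. NBPF26 had 42.6, 43.7 and 38.4 CPM in the pull-down at 72 h, against 2.35, 2.84 and 2.11 CPM in RNA-seq, and 8.66, 6.83 and 8.42 CPM in the pull-down at 12 h, against 5.65, 5.61 and 5.63 CPM in RNA-seq. The NBPF genes and LRRC37A16P belong to families of near-identical copies, and their split of uniquely placed reads is uncertain.

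Most of what the control pull-down held and lacked at 72 h was also held and lacked by the pull-down with miR-497-5p, in libraries that the comparison above did not use. Over 15202 genes tested in both, fold changes correlated across genes at 0.836 (Pearson) and 0.895 (Spearman), and 98.9% of 9104 genes called in both had the same sign. With miR-497-5p 69.2% of 15653 genes were called, 32.4% higher and 36.7% lower, and 22.1% were at least 2-fold higher and 27.5% at least 2-fold lower. Of the genes at least 2-fold higher in the control pull-down 84.7% were so with miR-497-5p. Of those at least 2-fold higher with miR-497-5p 81.9% were so in control. Of the genes at least 2-fold lower in the control pull-down 82.2% were so with miR-497-5p. Of those at least 2-fold lower with miR-497-5p 71.0% were so in control. The difference between the mimics was tested in a model of the 12 libraries at 72 h. Of 16896 genes, 1185 (7.01%) had a higher fold change in control and 1260 (7.46%) a lower one, of which 258 (1.53%) and 174 (1.03%) differed by at least 2-fold. Scaled by library totals, 747 genes were higher and 2085 lower. Those 2-fold counts moved with 1 control library fewer, whichever of an assay was left out: the count on the higher side was 170, 165 and 165 without RNA-seq replicates 1, 2 and 3, and that on the lower side 300, 281 and 290 without pull-down replicates 1, 2 and 3. Ribosomal protein genes were mostly on the side higher in control, 57 of 79 against 9 lower. Nuclear respiratory chain genes were too, 40 of 77 against 5. Both lists stood on the positive side by a median of under 0.5 log2 units, 0.39 for ribosomal proteins and 0.38 for the respiratory chain.

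Among called genes averaging 10 CPM or more, CSTF3 had the largest single difference between the mimics. This gene encodes a subunit of the cleavage stimulation factor that acts in 3′ end formation. It had 31.6, 25.1 and 29.3 CPM in the control pull-down, against 21.4, 20.8 and 20.7 CPM in control RNA-seq, and 7.53, 6.31 and 7.38 CPM in the miR-497-5p pull-down, against 24.2, 24.2 and 23.7 CPM in its RNA-seq. The difference was 2.20 ± 0.17 (adjusted p 1.15e-07). PIN4 (1.80 ± 0.10), a peptidyl-prolyl isomerase, had 194, 203 and 198 CPM in the control pull-down, against 36.4, 33.8 and 35.6 CPM in control RNA-seq, and 72.1, 59.2 and 64.3 CPM in the miR-497-5p pull-down, against 41.4, 40.8 and 39.6 CPM in its RNA-seq. ACOT13 (1.81), a thioesterase, RRN3 (1.69), an initiation factor of RNA polymerase I, and MGAM (1.6), an intestinal glucosidase, followed. For MGAM the pull-down libraries overlapped between the mimics. The RNA-seq libraries of MGAM did not, with 5.19 to 6.63 CPM in control and 24.6 to 25.1 CPM with miR-497-5p. On the opposite side TUBA1B (-1.99 ± 0.22) had 12.2, 11.4 and 9.23 CPM in the control pull-down, against 206, 210 and 208 CPM in control RNA-seq, and 6.63, 14.6 and 8.33 CPM in the miR-497-5p pull-down, against 43.2, 41.9 and 43.8 CPM in its RNA-seq. Its pull-down libraries overlapped between the mimics and its RNA-seq libraries did not. CCNE1 (-1.70 ± 0.20, adjusted p 1.53e-05), cyclin E1 of the G1/S transition, had 14.3, 17.4 and 19.9 CPM in the control pull-down, against 16.3, 16.4 and 16.8 CPM in control RNA-seq, and 21, 22.4 and 23.2 CPM in the miR-497-5p pull-down, against 5.95, 6.72 and 7 CPM in its RNA-seq. UNKL (-1.78), AKIRIN1 (-1.56) and PHACTR2 (-1.53) were the other genes of the 5 lowest. UNKL had 55.6 to 60.9 CPM in the control pull-down and 60.9 to 77.5 CPM in the miR-497-5p pull-down. In RNA-seq UNKL had 21.2 to 21.6 CPM in control and 6.85 to 8.14 CPM with miR-497-5p.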

How the data were processed

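The authors deposited 1 file per library with raw whole-number counts, covering 57500 gene identifiers. The submitters' processing notes name GRCh38, Trimmomatic 0.36, STAR 2.5.2b and featureCounts of Subread 1.5.2. Per the design text only uniquely placed reads within exons were counted, so genes with near-identical copies lose reads. The sources used here do not say whether counting used strand, so overlapping and antisense genes are uncertain. Symbols, positions and transcripts came from GENCODE 44, which held 98.1% of the identifiers.

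The counts were fitted with edgeR 4.0.16 (R 4.3.3), using TMM factors, filterByExpr and robust quasi-likelihood tests on the 6 libraries of control at 72 h. Differences between times and between mimics were tested as interactions over 12 libraries each. Benjamini-Hochberg adjustment covered every gene of a fit, and 0.05 was the threshold. The tests were first checked on simulated data that gave both assays the same spread per gene, so the check cannot speak to unequal spread. Of simulated 2-fold changes 46.5% were recovered in the main comparison, 35.8% between times and 38.1% between mimics. False calls made up 4.8%, 2.97% and 4.59% of the calls. Few genes were changed in the simulation, 99 by 2-fold and 95 by 4-fold of 15319 in the main comparison. The real comparison called 66.8% of genes, so the simulated rates need not hold there. The variation between libraries (edgeR's coefficient) came to 0.22 in the pull-down and 0.0224 in RNA-seq, and it may be technical. The tests fitted the same spread per gene to both assays. Standard errors and p-values therefore do not reflect this unequal spread, and its effect on the calls was not tested. The 6 libraries held 23552252 to 30650982 counts.

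The libraries were chosen by their labels. The 35 gene lists, the features and the tests were chosen with earlier results of these data known. Genes named were the 12 largest changes in each direction that passed the test without overlap at an average of 10 CPM or more, the 3 lowest adjusted p in each list, the 6 genes the series names, the 6 highest in the pull-down and the 5 largest in each direction of each difference test. Others were chosen after their values were seen. These are 6 ribosomal protein genes, MT-CYB, MT-ND6, the genes shown for their coding purine runs and the cell type markers. Alternatives were RLE and library-total scaling, other filters, DESeq2 1.42.0, a replicate block, a shared spread, mitochondrial genes left out and each library left out. Some sequence windows examined are not reported here.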

Additional observations from a re-analysis of the deposited data

Results flagged for a closer look

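The difference between the pull-down and RNA-seq was itself tested between groups, and these results passed in edgeR's quasi-likelihood test at an adjusted p under 0.05. Between 72 h and 12 h in control cells the fold change was higher at 72 h for 3368 genes and lower for 4384. The largest of these, of those averaging 10 CPM or more, were NBPF8 (4.86), SRXN1 (3.95), LRRC37A16P (3.93), NBPF15 (3.86) and NBPF26 (3.59) on the higher side. On the lower side they were PCBP1 (-4.16), PSMC3IP (-4.08), DBNDD2 (-3.93), SRSF9 (-3.87) and SBDSP1 (-3.78).

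Between the control mimic and miR-497-5p at 72 h the fold change was higher in control for 1185 genes and lower for 1260. The largest, of those averaging 10 CPM or more, were CSTF3 (2.20), ACOT13 (1.81), PIN4 (1.80), RRN3 (1.69) and MGAM (1.6) on the higher side. On the lower side they were TUBA1B (-1.99), UNKL (-1.78), CCNE1 (-1.70), AKIRIN1 (-1.56) and PHACTR2 (-1.53). No group here holds more than 3 libraries, so single libraries were not screened for values far from the others.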

How the results depend on the processing

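Values below are counts of genes called, or medians of a class minus that of all genes. Values of named genes in control at 72 h and in the difference tests kept direction and call in 170 of 170 with RLE scaling and with no filter, 169 with DESeq2, 168 to 169 without single libraries and 164 with library totals. Scaled by library totals, 2180 genes were at least 2-fold higher in the pull-down. In the test between mimics that scaling gave 747 higher, 2085 lower and 297 at least 2-fold lower, and RPL8 (-0.15) and PHACTR2 (-0.32) changed sign in control at 72 h. The count at least 2-fold lower between mimics was 105 with the filter at 5 CPM and 292 with DESeq2. The cause was not tested. With at least 5 CPM, which tests fewer genes, the class medians were -2.69 for mitochondrially encoded mRNAs, -1.79 for inflammatory genes, -0.95 for G2/M, -0.81 for TOP factors, -0.05 for ribosomal proteins (0.06 as reported), 0.31 for the respiratory chain, -0.11 for mitochondrial ribosomal proteins, 0.45 for the proteasome, -0.09 for KRAB genes, -0.43 for matrix genes, -0.48 for snoRNA hosts and 0.29 for long noncoding RNA. With no filter they were -0.76 for detained introns, -0.59 for cytosolic chaperones and -1.32 for long noncoding RNA (0.17 as reported). Relative to genes of like GC content, an alternative added after seeing the data, they were -1.87 for mitochondrially encoded mRNAs, -0.29 for detained introns, -0.54 for G2/M, -0.43 for chaperones and for TOP factors, 0.07 for ribosomal proteins, 0.39 for the respiratory chain, 0.15 for mitochondrial ribosomal proteins, 0.34 for the proteasome, -0.29 for giant mRNAs, 0.33 for KRAB genes (-0.28 as reported), -0.86 for matrix genes, -0.05 for endoplasmic reticulum chaperones, -0.57 for snoRNA hosts and 0.28 for long noncoding RNA. As a percent of counts of nuclear genes the pull-down minus RNA-seq share was -4.88 for ribosomal proteins, 0.112 for long noncoding RNA and -0.0629 for pseudogenes. With MALAT1 left out, also added after seeing the data, the long noncoding share differed by -0.244 (0.182 as reported).

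Leaving out each library in turn, the counts ranged from 4499 to 5422 higher and 4855 to 6119 lower in the main comparison, and between mimics from 165 to 325 at least 2-fold higher and 117 to 300 lower. Class medians ranged from -0.95 to -0.78 for G2/M, 0.03 to 0.08 for ribosomal proteins, 0.37 to 0.43 for the respiratory chain, -0.02 to 0.09 for mitochondrial ribosomal proteins, -0.31 to -0.18 for giant mRNAs, -0.39 to -0.28 for KRAB genes, -0.49 to -0.28 for matrix genes, -0.49 to -0.36 for snoRNA hosts and 0.11 to 0.32 for long noncoding RNA. The 0.09 arose without pull-down replicate 2. Deviations of libraries with the same replicate number were nearly uncorrelated between the assays (0.0229, -0.00567 and 0.00255 over 9727 genes). The RNA-seq libraries varied little among themselves (edgeR's coefficient 0.0224), so these correlations cannot show whether the libraries were paired. With the replicate number as a block 4793 genes were higher and 5378 lower in the main comparison, and 104 at least 2-fold lower between mimics.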
